A study of Mus musculus with 4 samples.

Results

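The mature miRNAs of the imprinted Dlk1-Dio3 locus on mouse chromosome 12 were chosen by number: a row of the small RNA table was taken when the number in its name is one of 49 assigned to this locus, whatever its letter suffix or arm. That gave 86 of 707 listed mature miRNAs, by a rule that itself uses no measured value. Of the 49 numbers, 48 had a row and miR-654 had none. The 86 rows come from 51 hairpins. Both arms were listed for 35 hairpins and 1 arm for 16. All 86 were placed on chromosome 12 through the RefSeq gene annotation of GRCm38.p6. From Meg3 to Mirg the annotation names 111 mature miRNAs, of which 82 are members listed in the table under the same name; the members miR-376c-3p, miR-485-5p, miR-487b-3p and miR-3070a-3p have no entry of their own name. Of the 10 annotated names that the rule leaves out, only miR-1188-5p was listed, with 1 read.

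The locus holds one of the largest groups of miRNA genes in the mammalian genome. Dlk1, Rtl1 and Dio3 are expressed from the paternal chromosome, and the noncoding transcripts Meg3, Rian and Mirg, with the miRNAs, from the maternal one. A primary miRNA transcript is cut by Microprocessor (Drosha with DGCR8) into a hairpin, Dicer cuts the hairpin into a duplex of a 5p and a 3p arm, and Argonaute keeps mainly one arm, whose seed (bases 2 to 8) pairs with target mRNAs. In mouse pluripotent stem cells, silencing of the maternal transcripts is known from induced lines of poor developmental potential.

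Polyadenylated RNA was sequenced from dgcr8-/-, dicer-/- and WT mouse embryonic stem cells, and small RNA from WT cells alone, in 1 library each. No value below therefore compares a miRNA between genotypes. The labels do not describe the knockout alleles or say how many clones were used; they give V6.5 as the strain throughout, and the cultures held serum and leukaemia inhibitory factor. The small RNA library holds 2594949 reads, and 1 read is 0.385 RPM (reads scaled to a library total of 1000000). The mRNA libraries hold 11123498 counts for the Dgcr8 knockout, 12309100 for the Dicer knockout and 9931625 for WT. With 1 library per group there is no replicate error and no test. The 95% intervals given are exact and cover counting error only.

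The sequences of the most abundant members, from RefSeq (GRCm38.p6, chromosome 12), are shown because they carry most of the locus reads and because some of them differ by few bases. The seed is in capitals. The first group shares the seed AUGUAAC.
miR-411-3p: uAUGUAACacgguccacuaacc
miR-379-3p: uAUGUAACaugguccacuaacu
The 5p arms of the same hairpins differ at the first seed base, and miR-1193-5p has the seed of miR-379-5p.
miR-379-5p: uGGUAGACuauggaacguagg
miR-411-5p: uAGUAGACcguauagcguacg
miR-1193-5p: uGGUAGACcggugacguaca
The next pair, from neighbouring hairpins, differs by 1 base in the seed.
miR-381-3p: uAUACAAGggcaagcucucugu
miR-300-3p: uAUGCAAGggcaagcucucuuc
So does the pair of miR-376 3p arms with a RefSeq entry.
miR-376a-3p: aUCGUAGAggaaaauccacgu
miR-376b-3p: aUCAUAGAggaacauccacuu
The other abundant members each have a seed of their own in the locus.
miR-136-5p: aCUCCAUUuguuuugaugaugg
miR-434-5p: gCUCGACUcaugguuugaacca
miR-127-3p: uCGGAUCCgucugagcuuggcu
miR-409-3p: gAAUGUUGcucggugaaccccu
miR-541-5p: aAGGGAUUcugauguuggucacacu

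The locus took 23197 reads, 0.894% of the library (95% interval 0.883% to 0.905%). Its members ranged from 1 read to 5115 reads, with a median of 17.5 reads (6.74 RPM). The median of all 707 listed miRNAs was 21 reads (8.09 RPM). Of the 86 members, 18 reached 100 RPM (260 reads), which is 20.9%; of all listed miRNAs 23.2% did. At that level the locus was close to the whole table. The smallest level above 100 RPM was miR-431-5p at 132 RPM, and the nearest below was miR-382-5p at 99.0 RPM. At the low end, 35 of the 86 members had fewer than 10 reads and 8 had 1 read. Of all 707 listed miRNAs, 291 had fewer than 10 reads and 94 had 1 read.

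**Figure D1:**
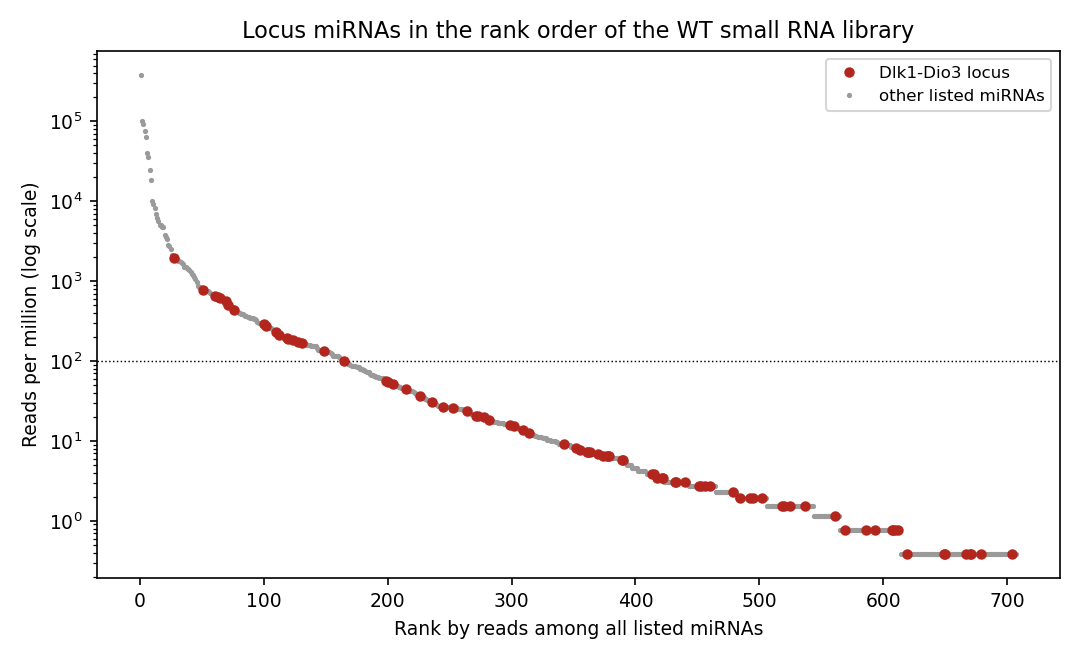
Level in RPM (log scale) of each listed miRNA against its rank by reads in the WT small RNA library, with the 86 locus members in red and the other listed miRNAs in grey; the dotted line is 100 RPM. The highest locus member, miR-381-3p, stands at rank 28 of 707, and the members then spread over the whole range of ranks.

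Few members carried most of the reads. The first 5 held 52.0% of the locus reads (51.4% to 52.7%) and the first 10 held 75.2% (74.6% to 75.7%). MiR-381-3p was highest, with 5115 reads, 1971 RPM (1918 to 2026), 22.1% of the locus. It was the only member at 1000 RPM or more, a level that 45 of the 707 listed miRNAs reached. MiR-379-5p followed at 778 RPM (744 to 813). MiR-136-5p at 652 RPM (621 to 683), miR-411-5p at 629 RPM (598 to 660) and miR-434-5p at 620 RPM (591 to 651) came next, with overlapping intervals, so their order was not resolved by counting alone. MiR-127-3p had 562 RPM (534 to 592), and its interval overlapped both that of miR-434-5p and that of miR-411-3p, at 510 RPM (483 to 538). MiR-409-3p had 430 RPM (405 to 456). MiR-541-5p at 291 RPM (270 to 312) and miR-379-3p at 278 RPM (258 to 299) were again not separated by their intervals.

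The other large miRNA groups of these cells frame that level. The miR-290 to miR-295 cluster, the main miRNA cluster of mouse embryonic stem cells, has 14 rows and took 78.1% of the reads, with miR-293-3p alone at 998005 reads. The miRNAs numbered as the Sfmbt2 intron cluster, another large imprinted group in mouse, have 67 rows and took 0.527% (0.518% to 0.536%), with a median of 17 reads and miR-669a-5p highest at 2913 reads. The miRNAs named as the miR-17-92 cluster, which is not imprinted, have 13 rows and took 0.328% (0.321% to 0.335%). Among them miR-19b-3p was highest at 2537 reads. The rows of the last 2 groups were chosen by number or name. Any copies from other loci, such as those of miR-19b and miR-92a, were therefore not left out. The locus share exceeded the last 2 shares beyond counting error in this library.

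Along the chromosome the reads were uneven. In RefSeq order the locus begins with Meg3, followed by the span of Rtl1, the span of Rian, a stretch between Rian and Mirg as annotated, and Mirg. The stretch between Rian and Mirg, where the long miR-379 cluster begins, held 27 hairpins and 14279 reads, 61.6% of the locus (60.9% to 62.2%). The Mirg span held 9 hairpins and 2774 reads, 11.96% (11.5% to 12.4%). Both together, from miR-379 to miR-3072, took 73.5% (72.9% to 74.1%). The Rtl1 span held 12 hairpins and 5905 reads, 25.5% (24.9% to 26.02%). The Rian span, with miR-341 and miR-370, took 0.992%, and the Meg3 span, with miR-770-3p at 9 reads, took 0.0388%. Within a block the hairpins ranged widely. Between Rian and Mirg they ranged from 3 reads to 5116 reads, with a median of 61, and in the Rtl1 span from 1 read to 2110 reads, with a median of 65.5.

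**Figure D2:**
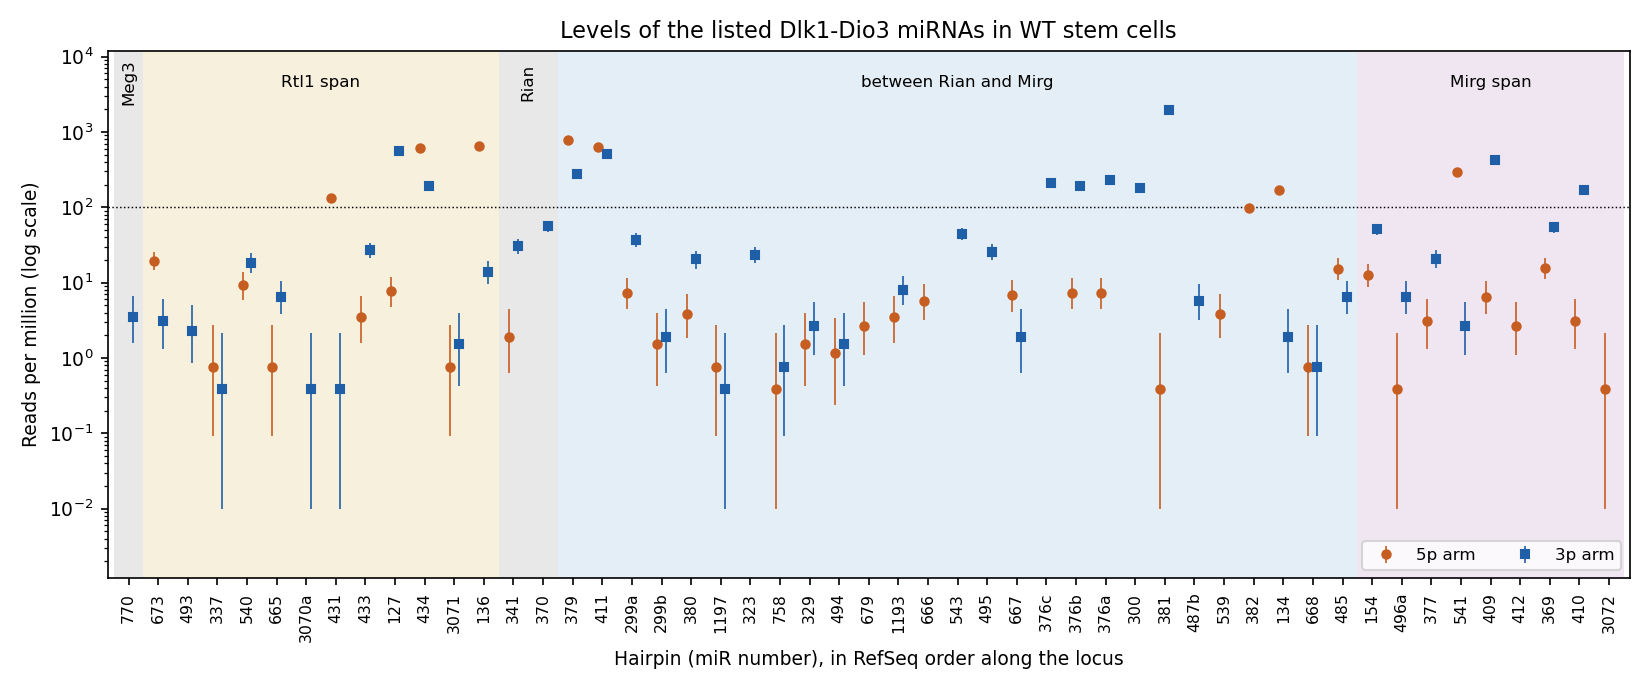
Level in RPM (log scale) of each listed 5p arm (orange circles) and 3p arm (blue squares) for the 51 hairpins in RefSeq order along the locus in WT cells, with exact 95% counting intervals; shading marks the annotated blocks and the dotted line is 100 RPM. High hairpins lie singly, such as miR-134, or in short runs, such as the 5 from miR-376c to miR-381. The 14 hairpins from miR-299a to miR-667 all stay below 100 RPM.

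The hairpins with an arm at 100 RPM or more, 15 of 51, lay in 8 runs along the locus. Of these runs, miR-431, miR-136, miR-134 and miR-410 were each a single hairpin between lower ones. Whether such hairpins lie together more than in a random order was not tested. The longest run was miR-376c, miR-376b, miR-376a, miR-300 and miR-381, 5 adjacent hairpins whose 3p arms were all at 181.5 RPM or more. MiR-376c-3p had 543 reads, miR-376b-3p 496 reads, miR-376a-3p 596 reads and miR-300-3p 471 reads before the peak of 5115 reads at miR-381-3p. The neighbours on either side were low: miR-667 had 23 reads over both arms and miR-487b-3p had 15 reads. A second pair of neighbours, miR-379 and miR-411 at the start of the cluster, had 2741 and 2955 reads over both arms. From miR-299a to miR-667 lay 14 hairpins of which the highest arm, miR-543-3p, had 44.7 RPM. At the far end miR-541 and miR-409 were neighbours with 761 and 1132 reads, and miR-410, the last hairpin of the cluster by its usual name, had 444 reads.

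MiRNAs that lie opposite the Rtl1 coding strand form the second source of reads. MiR-127, miR-136, miR-431, miR-433 and miR-434 are transcribed antisense to Rtl1, the paternally expressed gene of a retrotransposon-derived protein needed in the placenta, and are known in mouse to guide cleavage of its mRNA. Their 10 rows took 5739 reads, 24.7% of the locus (24.2% to 25.3%). MiR-136-5p had 1691 reads, miR-434-5p 1610 reads, miR-127-3p 1459 reads, miR-434-3p 500 reads and miR-431-5p 343 reads. MiR-433-3p was far lower, at 70 reads. The lesser arms were miR-136-3p with 36 reads, miR-127-5p with 20 reads, miR-433-5p with 9 reads and miR-431-3p with 1 read. The other hairpins of the Rtl1 span, miR-673, miR-493, miR-337, miR-540, miR-665, miR-3070a and miR-3071, had 1 to 72 reads each.

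The arm kept as the mature miRNA differed from hairpin to hairpin. Of the 25 hairpins with both arms listed and 20 or more reads, the 3p arm was at least 2-fold higher in 15 (60%), the 5p arm in 9 (36%), and neither in 1. Over all 190 such hairpins of the table the 3p arm was higher in 38.4% and the 5p arm in 50% (background from the same library, locus included). Outside the locus alone, 58 of 165 had the 3p arm higher and 86 the 5p arm. Hairpins are not replicates, and no test was made of that difference.

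Several hairpins gave nearly all their reads to one arm. MiR-381 had 1 read on its 5p arm and 5115 on its 3p arm. MiR-127 had 1.35% of 1479 reads on the 5p arm (0.828% to 2.08%), miR-409 1.502% of 1132 reads and miR-410 1.80% of 444 reads. MiR-376a and miR-376b, whose hairpins are known in mouse and human for adenosine-to-inosine editing, had 3.09% of 615 reads and 3.69% of 515 reads on the 5p arm. On the other side, miR-431 had 99.7% of 344 reads on the 5p arm, miR-541 99.1% of 761 reads, miR-134 98.9% of 450 reads and miR-136 97.9% of 1727 reads. Hairpins of both kinds lay close together, as with miR-127 and miR-431 in the Rtl1 span, and miR-541 and miR-409 were direct neighbours in the Mirg span.

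**Figure D3:**
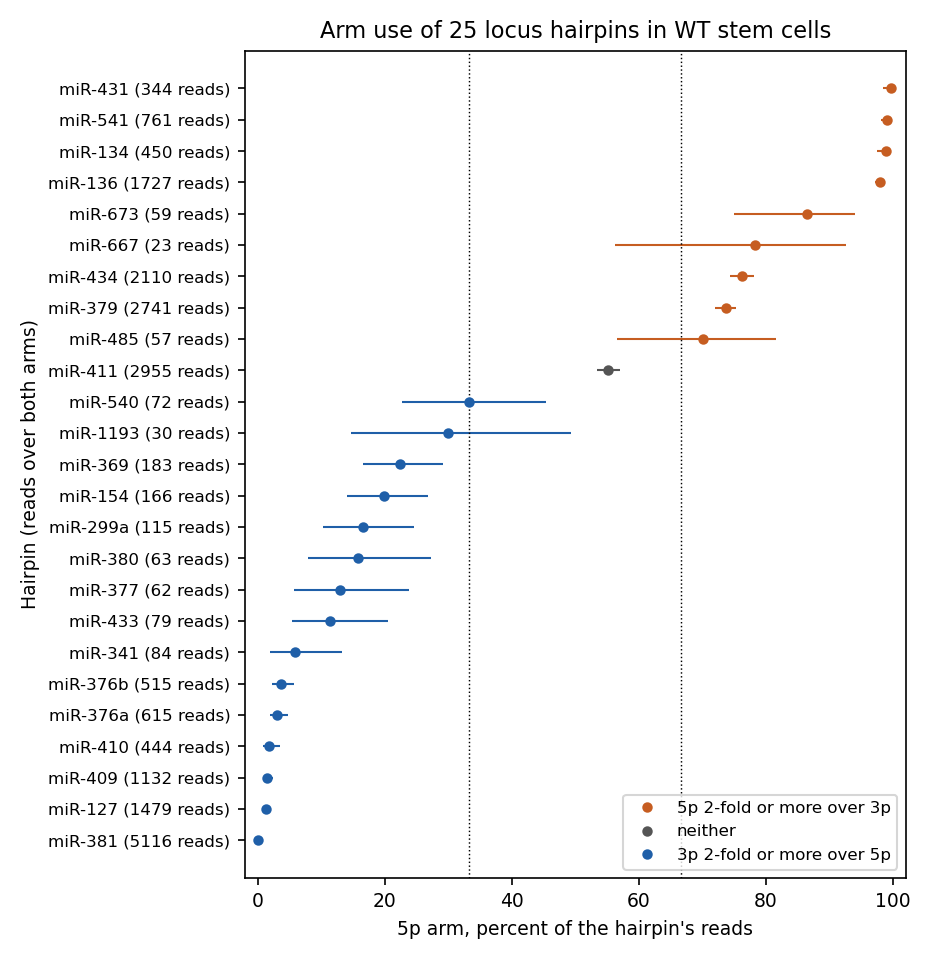
Percent of each hairpin's reads on the 5p arm in WT cells, with exact 95% counting intervals, for the 25 locus hairpins with both arms listed and 20 or more reads; the dotted lines mark where one arm is 2-fold over the other. Hairpins of high read number sit at both ends, from miR-381 at 0.0195% to miR-431 at 99.7%, and miR-411 lies between the lines at 55.2%.

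Others used both arms. MiR-411 was the most even, with 1631 reads on the 5p arm and 1324 reads on the 3p arm, 55.2% on the 5p arm (53.4% to 57.0%). Its RefSeq hairpin (GRCm38.p6, chromosome 12, plus strand), shown because both arms in capitals are among the abundant members, reads as follows.
Mir411: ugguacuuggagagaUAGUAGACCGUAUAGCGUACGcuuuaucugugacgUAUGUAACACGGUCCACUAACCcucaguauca
MiR-379 had 73.7% of its reads on the 5p arm (72.0% to 75.3%) and miR-434 76.3% (74.4% to 78.1%), so that miR-379-3p and miR-434-3p still had 722 and 500 reads. MiR-369 had 22.4% of 183 reads on the 5p arm, miR-154 19.9% of 166 reads and miR-299a 16.5% of 115 reads. The intervals of those 3 all stayed below 33.3% on the 5p arm. For 5 hairpins with 100 or more reads a single arm was listed: miR-376c-3p with 543 reads, miR-300-3p with 471 reads, miR-382-5p with 257 reads, miR-370-3p with 146 reads and miR-543-3p with 116 reads. Whether their other arms had no reads or were not counted by the authors cannot be told apart.

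Seeds were mostly distinct. The 82 members with a RefSeq sequence had 77 different seeds, and 5 seeds were shared by more than 1 of them. MiR-411-3p and miR-379-3p, with the seed AUGUAAC, are the same at 20 of 22 bases and differ by U10C and U22C (the base of miR-379-3p first, counted from 1 at the 5′ end, then that of miR-411-3p). Together they had 2046 reads, 788 RPM, 8.82% of the locus. The 5p arms of the same hairpins differ at 7 of 21 bases, among them G2A, the first base of the seed (miR-379-5p first). The seed GGUAGAC of miR-379-5p was shared with miR-1193-5p, which added 9 reads to its 2019.

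One base separated the seeds of other like members. MiR-381-3p and miR-300-3p are the same at 19 of 22 bases, and A4G lies in the seed (miR-381-3p first). They had 5115 and 471 reads. MiR-376a-3p and miR-376b-3p differ by 3 of 21 bases, with G4A in the seed (miR-376a-3p first), and had 596 and 496 reads. Because reads of such likes differ at so few bases, how a mismatch was treated in mapping can move reads between them. No source used here gives the counting settings.

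Sharing of a seed with listed miRNAs outside the locus was found for 3 members. They are miR-495-3p with miR-1192, miR-377-5p with miR-672-5p, and miR-329-3p with miR-362-3p. These 3 members had 82 reads together. Their partners outside had 2 reads (miR-1192), 4897 reads (miR-672-5p) and 56 reads (miR-362-3p). The seed of miR-377-5p, itself at 8 reads, was thus read almost wholly from outside the locus. In all, 546 of the 707 listed miRNAs matched a RefSeq name, so a seed shared with one of the others was not seen.

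Some members overlap on opposite strands or contain each other. MiR-3071 is annotated opposite miR-136, and miR-3071-3p is complementary to miR-136-5p over a run of 20 bases. It had 4 reads, and miR-136-5p had 1691 reads. The miR-299b hairpin lies opposite miR-299a, but the letters of the 18-base miR-299b-3p are also the first letters of miR-299a-3p, and miR-299b-5p is contained in miR-299a-5p from its base 2 on. The 5 and 4 reads listed for miR-299b can therefore not be told apart from the 96 and 19 reads of miR-299a-3p and miR-299a-5p.

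The first base of a miRNA is known to bear on its loading into Argonaute, with uridine and adenosine favoured. By rows, 31 of the 82 members with a sequence begin with U (37.8%), 30 with A, 11 with C and 10 with G. By reads, 63.8% of 22598 reads were of members that begin with U, 21.2% with A, 14.1% with G and 0.876% with C. The 11 members that begin with C thus had 198 reads in all. In the 23 hairpins with a sequence for both arms and 1 arm at least 2-fold higher, the higher arm began with A in 10, U in 9, C in 2 and G in 2, and the lower arm with A in 7, U in 9, C in 5 and G in 2. The share beginning with U was thus the same for higher and lower arms. The median length was 22 bases, from 18 to 26. First bases and lengths were not compared with the rest of the table.

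The polyadenylated RNA gives the levels of the noncoding transcripts Meg3, Rian and Mirg in the 3 genotypes. Their annotated spans hold 1, 2 and 9 of the 51 hairpins, so most of the miRNA reads came from hairpins outside them. All 3 were higher in the Dgcr8 knockout and lower in the Dicer knockout than in WT. Meg3 had 242 counts (21.8 CPM, scaled like RPM) in the Dgcr8 knockout, 6 counts (0.487 CPM) in the Dicer knockout and 101 counts (10.2 CPM) in WT. The ratio of CPM in the Dgcr8 knockout to WT was 2.14 (1.69 to 2.73), and the Dicer knockout was 20.9-fold below WT (9.26 to 58.2). Rian had 1287 counts (116 CPM) in the Dgcr8 knockout, 34 counts (2.76 CPM) in the Dicer knockout and 413 counts (41.6 CPM) in WT, and Mirg had 173, 0 and 20 counts in the same order. Mirg was 7.72-fold higher in the Dgcr8 knockout than in WT (4.85 to 13.0). With its 0 set to 3 counts, the Dicer knockout was 8.26-fold lower than WT, a value without a counting interval. The genotype in which the miRNAs were sequenced, WT, was thus between the knockouts for these 3 transcripts.

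**Figure D4:**
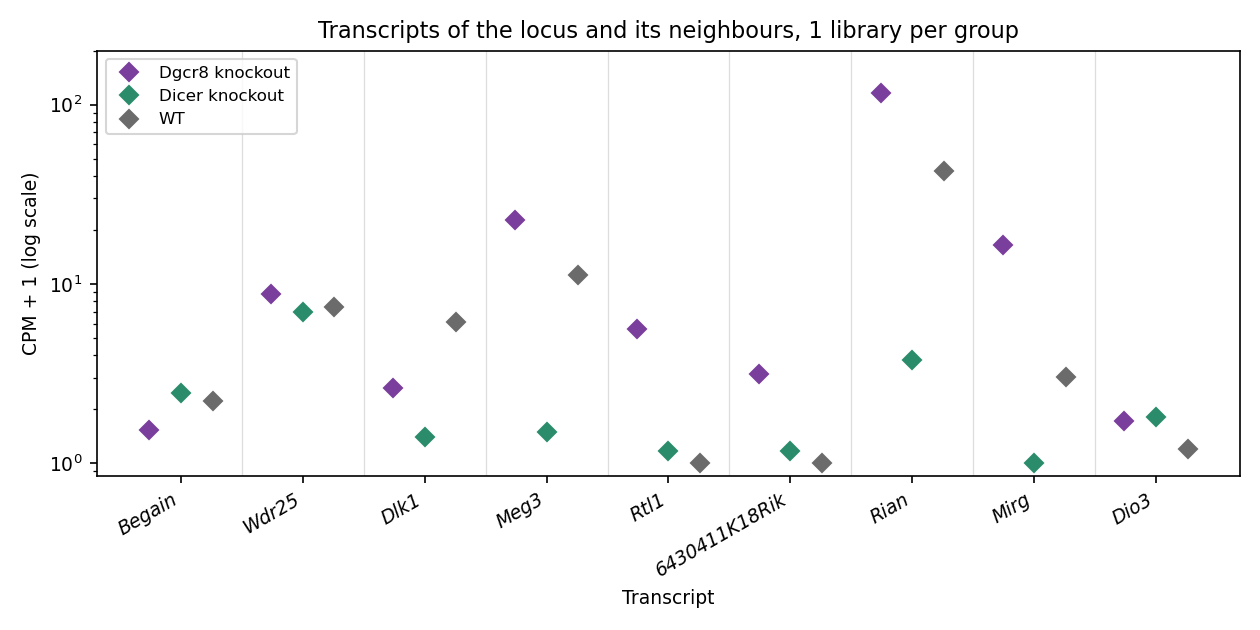
CPM plus 1 (log scale) of 9 transcripts of the locus and its neighbours in the Dgcr8 knockout, the Dicer knockout and WT, 1 library each. Meg3, Rian and Mirg are highest in the Dgcr8 knockout and lowest in the Dicer knockout, and Rtl1 and 6430411K18Rik have counts in the Dgcr8 knockout, 2 counts each in the Dicer knockout and none in WT.

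Rtl1, which the antisense miRNAs are known to cleave, had 51 counts (4.59 CPM) in the Dgcr8 knockout, 2 counts in the Dicer knockout and 0 in WT. With the WT library set to 3 counts, the Dgcr8 knockout was 15.2-fold higher, a value without a counting interval. The noncoding 6430411K18Rik, which RefSeq gives the synonym PEG11as, overlaps Rtl1. It had 24 counts in the Dgcr8 knockout, 2 in the Dicer knockout and 0 in WT. By the same rule it was 7.14-fold higher in the Dgcr8 knockout than in WT, again without an interval. The libraries were made with a stranded kit, but the use of strand in counting is not given, so reads of Rtl1 and of transcripts opposite it cannot be told apart. Dlk1, the gene of a noncanonical Notch ligand, counted here on its noncoding RefSeq entry, had 18, 5 and 51 counts in the Dgcr8 knockout, the Dicer knockout and WT. It was 3.17-fold lower in the Dgcr8 knockout than in WT (1.82 to 5.77) and 12.6-fold lower in the Dicer knockout than in WT (5.08 to 40.6). Dio3, the thyroid hormone deiodinase gene at the far end, had 8, 10 and 2 counts. The neighbours outside the imprinted transcripts, Begain and Wdr25, had ratios to WT of 0.446 (0.138 to 1.29) and 1.20 (0.858 to 1.69) in the Dgcr8 knockout, and 1.21 (0.552 to 2.75) and 0.933 (0.659 to 1.33) in the Dicer knockout.

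Of 11 transcripts listed for the locus, 9 had a row. On the log2(CPM + 1) scale and among those at 1 CPM or more in either library, 5 of 8 were at least 2-fold higher and 1 was lower in the Dgcr8 knockout against WT, where 14.3% of all genes tested were higher and 8.02% lower. With TMM or median-ratio scaling 4 were higher, since Meg3 came just under 2-fold. In the Dicer knockout against WT, 0 of 6 were higher and 4 lower, where 16% of all genes were higher and 9.7% lower. In the Dgcr8 knockout against the Dicer knockout, 5 of 8 were higher and 0 lower, where 4.15% of all genes were higher and 5.05% lower. Their median log2 ratios were 1.24, -1.86 and 1.85 in the 3 pairs, beside 0.11, 0.10 and 0.00187 for all genes. These counts are a description: several transcripts reached 1 CPM only in the library where they are high, such as Rtl1 in the Dgcr8 knockout, and could come out one way only. Each library enters 2 of the 3 pairs. Median-ratio scaling moved the median of all genes by -0.13 and -0.11 (log2) in the pairs with WT, and TMM scaling by -0.11 and -0.10. Of the genes called in the Dgcr8 knockout against WT, 64.1% were higher (1891 against 1060 lower), and 53.6% with median-ratio scaling (1558 against 1348).

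Marker levels of other cells stood beside these values. All 8 stem cell markers were counted in every library, from 76.9 to 5564 CPM, with sums of 7281 CPM in the Dgcr8 knockout, 7857 CPM in the Dicer knockout and 11449 CPM in WT. In each knockout 0 of the 8 were at least 2-fold higher than WT and 3 lower. These were Klf4, Tdgf1 and Dppa5a in the Dgcr8 knockout, and Klf4, Tdgf1 and Zfp42 in the Dicer knockout. Over all genes, 14.3% were higher and 8.02% lower in the Dgcr8 knockout, and 16% and 9.7% in the Dicer knockout. Klf4 had 103, 76.9 and 430 CPM in the Dgcr8 knockout, the Dicer knockout and WT. Of 8 markers of fibroblast feeder cells, which such cultures can hold, Col1a1, Thy1 and S100a4 had a row, and Col1a2, Col3a1, Postn, Dcn and Lum had none. Their summed level was 2.61 CPM in the Dgcr8 knockout, 2.19 CPM in the Dicer knockout and 28.5 CPM in WT. Col1a1 had 6, 5 and 97 counts in the Dgcr8 knockout, the Dicer knockout and WT, Thy1 had 23, 16 and 175, and S100a4 had 0, 6 and 11. The part of other cells in the WT miRNA reads or in the transcript levels was not tested, and in bulk RNA fewer cells of a type and less RNA per cell cannot be told apart.

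Of 13 genes reported elsewhere as direct or indirect targets of miRNAs of this locus, 12 had a row and Bdnf had none. In the Dgcr8 knockout against WT, Rtl1 and Cdh2 were at least 2-fold higher and 0 of the 12 lower, with a median log2 ratio of 0.42, where 14.3% of all genes were higher and 8.02% lower. In the Dicer knockout against WT, Creb1 and Cdh2 were at least 2-fold higher and 0 of 11 lower, with a median of 0.04, where 16% of all genes were higher and 9.7% lower. In the Dgcr8 knockout against the Dicer knockout, Rtl1 was higher and Cdh2 lower among 12, with a median of 0.10. Of all genes in that pair, 4.15% were higher and 5.05% lower. The shares of higher targets in the pairs with WT were thus near those of all genes. Cdh2 reached 1 CPM only in the knockouts, and Rtl1 only in the Dgcr8 knockout, so against WT they could come out higher only. For the same reason Rtl1 could come out only higher in the Dgcr8 against the Dicer knockout. Rtl1 was below 1 CPM in both the Dicer knockout and WT and was left out of their pair.

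Cdh2 (N-cadherin), reported in mouse neural progenitors as a target of miR-369-3p, miR-496 and miR-543, had 90 counts in the Dgcr8 knockout, 326 in the Dicer knockout and 1 in WT. In WT those miRNAs were modest, with 142 reads of miR-369-3p, 17 reads of miR-496a-3p and 116 reads of miR-543-3p. Creb1, a neuronal target reported for miR-134 in mouse, had 59.4 CPM in the Dgcr8 knockout, 69.0 CPM in the Dicer knockout and 31.1 CPM in WT, a ratio to WT of 1.91 (1.67 to 2.19) and 2.22 (1.94 to 2.53). DGCR8 and Dicer serve nearly all miRNAs, and no small RNA was sequenced from the knockouts, so these levels cannot be tied to any miRNA of the locus.

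MiR-134-5p had 445 reads (171 RPM) in WT. It has been reported in mouse stem cells to act, directly or indirectly, on the pluripotency genes Nanog, Sox2 and Pou5f1. The same is reported for Nr5a2, an activator of Pou5f1. Nanog had 577 CPM in the Dgcr8 knockout, 417 CPM in the Dicer knockout and 405 CPM in WT. Sox2 had 523, 532 and 382 CPM in the same order, and Nr5a2 had 33.3, 20.96 and 24.0 CPM. Pou5f1 had 1898 CPM in the Dgcr8 knockout, 1635 CPM in the Dicer knockout and 2207 CPM in WT. None of the 4 mRNAs differed 2-fold from WT in either knockout. Protein was not measured, so a change in protein alone would not be seen.

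The mRNAs of further reported targets stayed within 2-fold of WT in both knockouts on the log2(CPM + 1) scale. Limk1, a kinase gene of the actin skeleton and a reported target of miR-134 in rat neurons, had 34.1, 24.5 and 25.9 CPM in the Dgcr8 knockout, the Dicer knockout and WT. Pum2, which encodes a translational repressor, had 135.6, 161 and 105 CPM. Prps1, a nucleotide synthesis gene reported for the edited form of miR-376a in mouse, had 77.5, 116 and 139 CPM. The transcriptional repressor gene Bcl6 had 30, 19 and 23 counts.

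Genes reported to act on imprinting at the locus were also counted, all 15 with a row. In the Dgcr8 knockout against WT, 0 were at least 2-fold higher and 3 lower; in the Dicer knockout against WT, 3 were higher and 3 lower; in the Dgcr8 knockout against the Dicer knockout, 1 was higher and 3 lower. The shares over all genes in these pairs were 14.3% higher and 8.02% lower, 16% and 9.7%, and 4.15% and 5.05%, so that 3 of 15 higher in the Dicer knockout was near the share of all genes. Zfp57, the zinc finger gene that keeps methylation at imprints, was counted here on a noncoding RefSeq entry. It had 293 CPM in the Dgcr8 knockout, 267 CPM in the Dicer knockout and 750 CPM in WT. The methylation cofactor gene Dnmt3l had 73.4, 84.6 and 286 CPM in the same order. Dppa3, whose protein guards imprinted methylation, had 11 counts in the Dgcr8 knockout, 287 in the Dicer knockout and 49 in WT. Aff3 had 22, 181 and 22 counts. The methyltransferase gene Dnmt3a had 59.4, 124 and 56.9 CPM, and the dioxygenase gene Tet2 had 89.1, 42.4 and 88.2 CPM. Zfp57 and Dnmt3l were thus at least 2-fold lower than WT in both knockouts, and Dppa3 was lower in the Dgcr8 knockout and higher in the Dicer knockout. The other 9 of the 15 stayed within 2-fold in all 3 pairs.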

How the data were processed

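The authors' tables were used as deposited. The submitters' processing notes name Bowtie (no version) and mm9; no source used here gives the counting tool, its annotation or its use of strand. Both tables hold deposited counts, whole numbers that differ in total between libraries: reads per mature miRNA, without a header line, and counts per RefSeq entry. Empty mRNA cells were read as 0, and each of the 13815 mRNA rows reaches 10 counts in some library.

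RPM and CPM were scaled to the table totals. Intervals are Clopper-Pearson, or conditional binomial for ratios; PCR reads are not independent molecules. Counts of 2 to 9 were even in 69.6% to 74.8% of mRNA rows and in 62.9% of small RNA rows. Intervals are too narrow if both mates were counted. The cause of the even counts was not tested. Names, order and sequences came from RefSeq GRCm38.p6; its coordinates were left out, since mm9 is another build. Named were the 10 most abundant members, arms of hairpins with 100 or more reads, shared seeds of 100 or more reads, the Rtl1 antisense miRNAs and miR-134, the members next to 100 RPM, all locus transcripts and reported targets, regulators at 2-fold, and the top miRNA of each comparison cluster. The values of 1 listed target are not reported here. Members and lists were chosen with earlier results of these data known. Intervals and calls were tested only on data simulated with independent counts, which the intervals assume. Such data cannot show how the intervals do on the real counts. Tools were Python 3.11.15, scipy 1.17.1 and, for TMM, edgeR 4.0.16 in R 4.3.3.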

Additional observations from a re-analysis of the deposited data

How the results depend on the processing

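No paired analysis was possible because each group has 1 library and no result comes from a test. Without miR-293-3p in the denominator the locus took 1.45% of reads, and with only the members named in RefSeq 0.871%; counting identical sequences once or adding the other listed miRNAs of the locus, chosen after the data were seen, left 0.894%. At 10 RPM 36 members passed and at 1000 RPM 1. With 100 reads over both arms the 3p arm was higher in 9 of 16 locus hairpins (56.25%) and the 5p arm in 6 (37.5%). Over all such hairpins of the table the shares were 38.7% and 49.6%. At 4-fold the 3p arm was higher in 12 of 25 locus hairpins (48%) and the 5p arm in 5 (20%). Over all such hairpins the shares were 32.1% and 41.6%. Fewer hairpins can pass under each setting. With an arm that has no row taken as 0, chosen after the data were seen, 21 of 32 locus hairpins had the 3p arm higher and 10 the 5p arm; the rest of the table was not counted that way. Over all genes, a pseudocount of 5 CPM gave 1087 higher and 411 lower in the Dgcr8 knockout against WT, 1232 and 591 in the Dicer knockout against WT, and 182 and 222 in the Dgcr8 against the Dicer knockout, where 0.1 CPM gave 849 and 1004. At 4-fold the numbers were 342 and 159, 539 and 233, and 63 and 114. Of the locus transcripts in the Dgcr8 knockout against WT, 2 were higher and 0 lower with 5 CPM and likewise at 4-fold, and 2 lower with 0.1 CPM. In the Dicer knockout against WT 2 were lower with 5 CPM. In the Dgcr8 against the Dicer knockout 3 were higher with 5 CPM and 1 lower with 0.1 CPM. With 5 CPM 1 reported target was higher in the Dgcr8 knockout against WT, and 0 targets and 0 regulators were higher in the Dgcr8 against the Dicer knockout. The cause was not tested. Of 19 ratios of locus transcripts and targets at 2-fold or more, 18 stayed there under each other scaling, 19 with 0.1 CPM and 11 with 5 CPM, and 0 changed sign. Depth limits the 35 members with fewer than 10 reads: their arm and order are not resolved.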
